A study of Mus musculus with 5 samples.

Results

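Genes of endothelial tip cells and of tumor vessels were followed across liver and tumor endothelium in mice. The 9 genes were Esm1, Apln, Aplnr, Kcne3, Cxcr4, Ackr3, Adm, Nid2 and Vwa1, chosen by name from the 37074 gene names on the array, and all 9 were found, with 13 probes in all. The 5 conditions had 1 array each: liver sinusoidal endothelial cells (LSECs) isolated from mouse liver, tumor endothelial cells (TECs) from hepatomas of the HAK-1B, Hepa1-6 and KYN-2 lines grown in the liver, and Hepa1-6 cancer cells in culture. Hepa1-6 derives from a mouse hepatoma, and the HAK-1B and KYN-2 lines are of human origin. The labels give the strain C57BL/6 for LSECs and for all TECs and C57L for the cultured cells, whereas the methods name female C57BL/6 or BALB/c nu/nu mice (nude mice, which lack T cells) of 6 weeks of age. No treatment is given for any of these samples. TECs were taken from digested tumors as CD31-positive cells on magnetic beads, so any other cell that carries CD31 or sticks to the beads can be among them. The sources used here do not say whether mice were pooled, and where the labels name HAK-1B, the array section of the methods has Huh-7.

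When a vessel sprouts, a tip cell leads the sprout up a gradient of vascular endothelial growth factor (VEGF), and stalk cells behind it form the lumen. Tip cells are known for transcripts of secreted proteins such as Esm1 and Apln, of the chemokine receptor Cxcr4 and of matrix genes such as Nid2. Apelin and its receptor, the chemokine CXCL12 with its receptors CXCR4 and ACKR3, and adrenomedullin with its receptor complex are pathways through which endothelial cells steer growth, migration and permeability. LSECs in a healthy liver are quiescent, fenestrated cells with little basement membrane.

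Signals are log2 intensities, background-subtracted by the scanner software and quantile normalized over the 5 arrays, and a probe counts as detected where that software marks it as well above background. With 1 array per condition there are no replicates, so the values have no error between animals. The scanner software's own error estimate for the detected spots of these genes had a median of 10.0% of the signal and a highest value of 18.9%, and it covers the measurement of a spot only. Detected probes made up 44.6% to 78.1% of an array, with the highest share in Hepa1-6 TEC. Some low signals detected on that array were below undetected signals of the same probe on other arrays. The TEC arrays shared a slide that held neither of the other 2 arrays, so slide and condition cannot be told apart. All 11 pan-endothelial markers and all 10 LSEC markers were detected on the LSEC array and on every TEC array. On the array of cultured Hepa1-6 cells 2 of 11 and 2 of 10 were. The median pan-endothelial marker had a log2 ratio to LSEC of -1.58 in KYN-2 TEC, -2.10 in HAK-1B TEC and -2.42 in Hepa1-6 TEC. In these mixed samples fewer cells of a type and less RNA per cell cannot be told apart.

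Most of the 9 genes were higher in TECs than in LSECs. Of 27 pairs of a gene and a TEC array, 24 had a log2 ratio to LSEC above 0, and 7 of the 9 genes were above LSEC in all 3 TECs. The exceptions were Adm, the gene of adrenomedullin, which was lower in HAK-1B and Hepa1-6 TECs, and Nid2, a basement membrane gene, which was at the LSEC level in Hepa1-6 TECs. None of the 9 was highest in LSECs or in cultured cells. For 6 genes (Esm1, Apln, Kcne3, Adm, Nid2 and Vwa1) the KYN-2 TEC array had the highest signal, and for the 3 seven-transmembrane receptors (Aplnr, Cxcr4 and Ackr3) it was the HAK-1B TEC array.

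**Figure D1:**
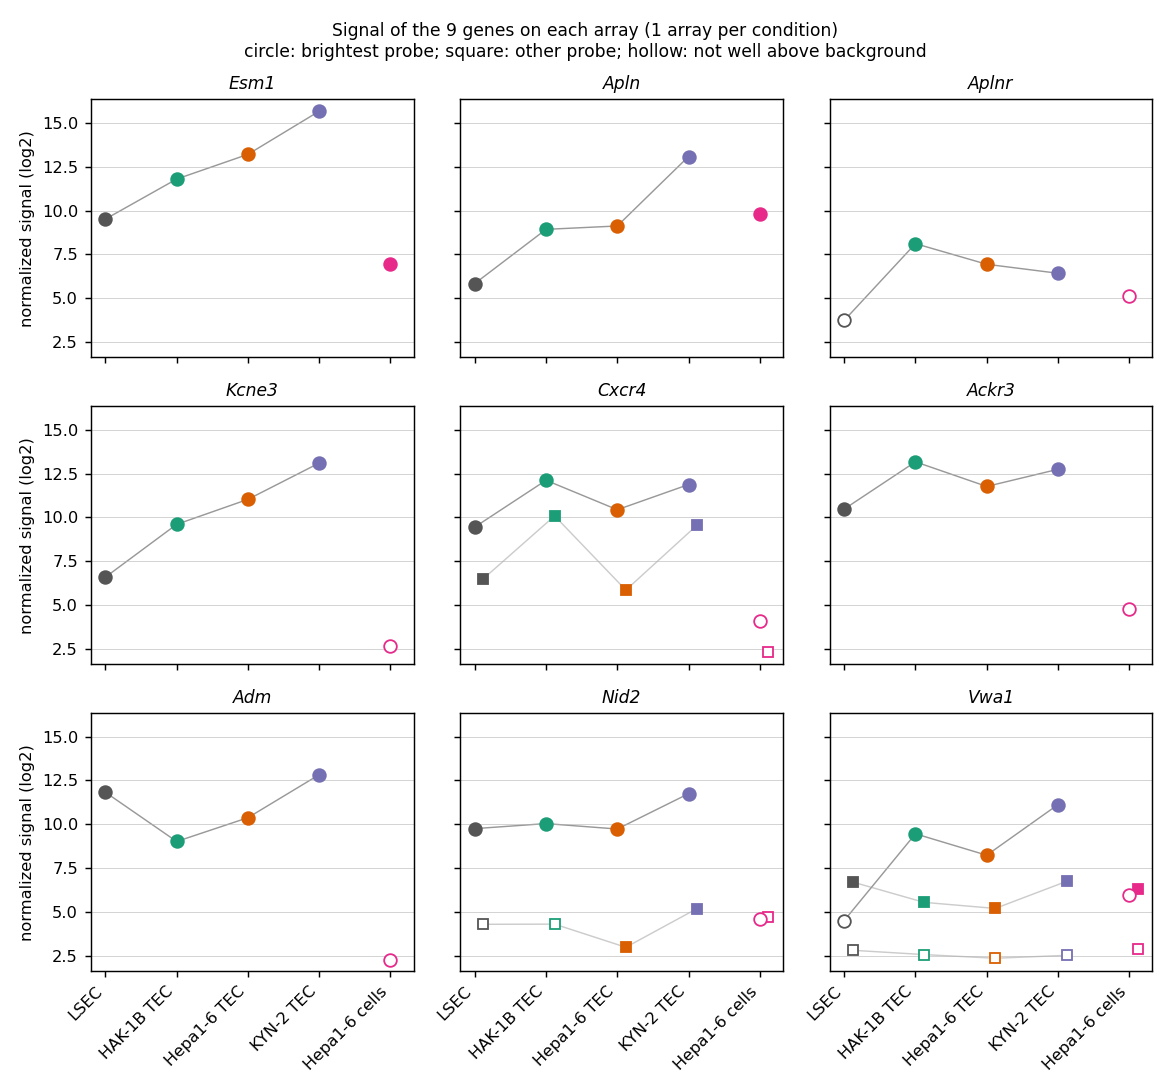
Normalized log2 signal (vertical axis) of each gene on the 5 arrays (horizontal axis), with 1 array per condition and no error bars. Circles are the brightest probe of a gene, squares its other probes, and hollow symbols spots not well above background, and Esm1 lies at 9.51 in LSEC and at 15.65 in KYN-2 TEC, while Adm lies below its LSEC signal of 11.83 in HAK-1B and Hepa1-6 TEC.

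To set a size for single differences, the rule of the study's methods was applied: a ratio no lower than 1.5 together with a Z-score no lower than 2, or a ratio no higher than 0.66 together with a Z-score no higher than -2, where the Z-score is taken over all probes kept in a comparison. In practice the Z-score set the limit, at 7.25-fold higher for HAK-1B TEC, 11.4-fold for Hepa1-6 TEC and 6.79-fold for KYN-2 TEC against LSEC. For the brightest probe of each gene, 4 of 9 were called higher and 1 lower in HAK-1B TEC, where 2.77% of 32055 probes were called higher and 3.41% lower. In Hepa1-6 TEC 3 of 9 were called higher and 0 lower, against 3.77% higher and 1.94% lower over 41379 probes. In KYN-2 TEC 4 of 9 were called higher and 0 lower, against 3.29% higher and 2.52% lower over 31168 probes. Kcne3 and Vwa1 were called higher in all 3 TECs, Esm1 in Hepa1-6 and KYN-2 TEC, Apln in HAK-1B and KYN-2 TEC, and Aplnr in HAK-1B TEC. The Hepa1-6 TEC calls of Vwa1 and Esm1 were lost with scaling to the 75th percentile, and that of Vwa1 also with normalization by pair, with normexp and with the mean over probes. The genes had been chosen with earlier results of these arrays known, and all 3 comparisons share the LSEC array, so the counts are a description. The median log2 ratio of the 9 genes was 2.69 (HAK-1B), 3.20 (Hepa1-6) and 2.68 (KYN-2), whereas the median of all probes kept was 0.05, 0.05 and -0.02. The medians for Hepa1-6 and KYN-2 TEC are the ratios of Aplnr, which was not detected in LSEC. With Aplnr and Vwa1 at their bounds, taken from the lowest signal detected on the LSEC array, the medians were at least 2.69, 2.27 and 2.42.

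**Figure D2:**
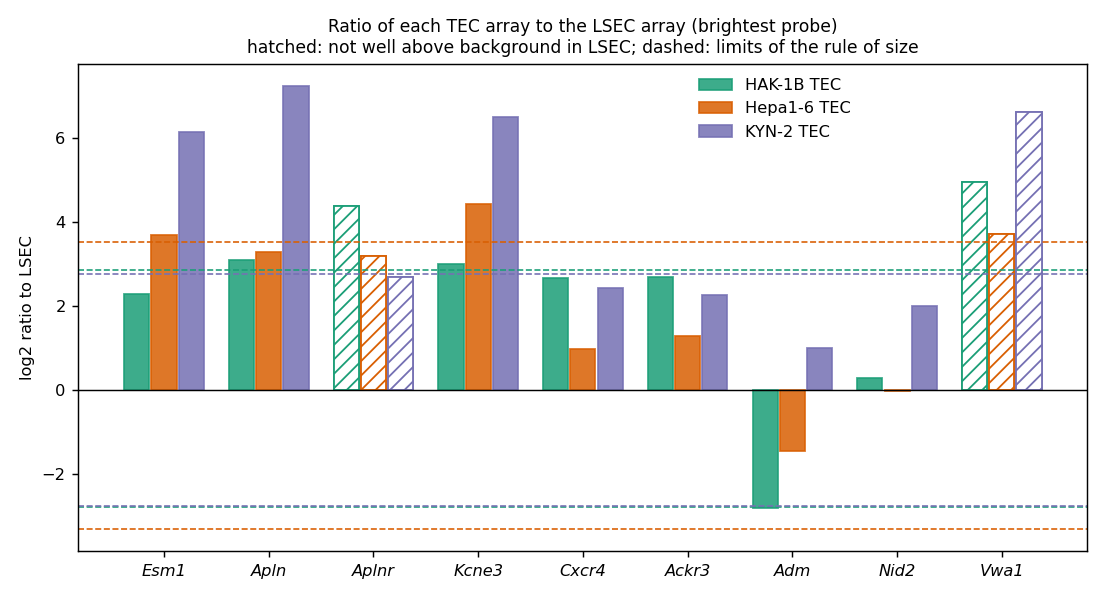
Log2 ratio to LSEC (vertical axis) of the brightest probe of each gene (horizontal axis) in the 3 TECs, 1 array each. Dashed lines are the limits of the rule of size in the color of each TEC, and hatched bars mark genes not well above background in LSEC, where the bar is not a measured fold: Apln, Kcne3 and Esm1 stand at 7.23, 6.49 and 6.14 in KYN-2 TEC, and Adm is at -2.80 in HAK-1B TEC.

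Esm1 encodes endocan, a proteoglycan secreted by endothelial cells under VEGF. Its log2 signal was 9.51 in LSEC, 11.79 in HAK-1B TEC, 13.20 in Hepa1-6 TEC, 15.65 in KYN-2 TEC and 6.95 in cultured Hepa1-6 cells, detected on all 5 arrays (probe at chr13:114008204-114008263, mm9). The TECs were therefore 4.85-fold, 12.9-fold and 70.5-fold above LSEC, and the first of these did not reach the limit of the rule. The cultured cells were 5.92-fold below LSEC, which was not called.

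Kcne3 is a small membrane subunit that partners voltage-gated potassium channels such as Kcnq1. The order of the arrays was that of Esm1: 6.60 in LSEC, 9.61 in HAK-1B, 11.03 in Hepa1-6 and 13.10 in KYN-2 TEC, with 2.66 and no detection in cultured cells. The TECs were 8.03-fold, 21.5-fold and 90.1-fold above LSEC, and each was called (probe at chr7:107333062-107333121, mm9). The signal of the partner channel was lower in TECs. Kcnq1 had 11.88 in LSEC, 9.24 in HAK-1B, 8.92 in Hepa1-6 and 10.65 in KYN-2 TEC, and none of these 3 differences reached the limit. Of the other family members Kcne1 was near background (3.82 to 5.59 on the endothelial arrays), Kcne4 was detected in Hepa1-6 TEC alone at 3.18, and Kcne1l, Kcne2 and the channel gene Kcnc4 were detected on no array. Kcne4 read 3.42 in HAK-1B and 3.69 in KYN-2 TEC without detection, so its detection in Hepa1-6 TEC is not a higher signal. Of the 7 genes of this list, Kcne3 was the 1 called in any TEC.

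Apln encodes apelin, the secreted ligand of the apelin receptor. Its signal was 5.85 in LSEC, 8.93 in HAK-1B TEC, 9.12 in Hepa1-6 TEC, 13.08 in KYN-2 TEC and 9.83 in cultured Hepa1-6 cells (probe at chrX:45378593-45378652, mm9). That made 8.48-fold, 9.68-fold and 150.1-fold above LSEC in the TECs, and Hepa1-6 TEC missed its limit. The cultured cancer cells carried the transcript too, at 1.64 times the signal of the TECs from the same line. No other of the 9 genes had a larger measured ratio in KYN-2 TEC, where Vwa1 has a bound only. HAK-1B and Hepa1-6 TEC were 1.14-fold apart.

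Aplnr is the receptor of apelin and a marker of sprouting and venous endothelium. It was not detected in LSEC (3.75) or in cultured cells (5.14), and had 8.12 in HAK-1B, 6.94 in Hepa1-6 and 6.43 in KYN-2 TEC (probe at chr2:84979638-84979697, mm9). Against the lowest signal detected on the LSEC array it was at least 10.8-fold higher in HAK-1B TEC, at least 4.81-fold in Hepa1-6 TEC and at least 3.37-fold in KYN-2 TEC, and only the HAK-1B difference was called. The ligand was thus highest and the receptor lowest in KYN-2 TEC. For the ligand the other 2 TECs were 1.14-fold apart, and no difference of Aplnr between TECs was called. Apela, the gene of the other ligand, has no probe under that name.

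The stretches of DNA just upstream of the transcription start are shown for Esm1, Kcne3 and Apln, which shared the order LSEC, HAK-1B TEC, Hepa1-6 TEC, KYN-2 TEC. Each is 250 bases long, ends at the base before the start site and reads 5′ to 3′ on the strand of the gene (RefSeq, GRCm38.p6). Capitals mark ACGTG, a form of the core of the hypoxia response element, and GGAA, the core of the site of ETS factors. Both are marked on either strand (CACGT and TTCC), and these patterns do not overlap each other in letters. The windows lie at chr13:113209409-113209658 (plus strand) for Esm1, chr7:100176420-100176669 (plus strand) for the upstream of the 2 start sites listed for Kcne3, and chrX:48034854-48035103 (minus strand) for Apln.
Esm1: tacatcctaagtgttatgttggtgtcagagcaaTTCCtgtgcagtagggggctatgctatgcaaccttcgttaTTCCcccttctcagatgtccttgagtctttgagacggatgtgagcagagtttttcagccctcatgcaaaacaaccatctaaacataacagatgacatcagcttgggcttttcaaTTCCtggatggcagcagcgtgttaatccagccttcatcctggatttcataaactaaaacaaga
Kcne3: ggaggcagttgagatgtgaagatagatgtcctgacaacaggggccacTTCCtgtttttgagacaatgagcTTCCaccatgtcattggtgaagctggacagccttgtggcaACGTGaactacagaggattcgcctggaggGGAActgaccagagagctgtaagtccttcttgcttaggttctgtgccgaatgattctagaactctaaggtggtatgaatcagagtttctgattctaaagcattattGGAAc
Apln: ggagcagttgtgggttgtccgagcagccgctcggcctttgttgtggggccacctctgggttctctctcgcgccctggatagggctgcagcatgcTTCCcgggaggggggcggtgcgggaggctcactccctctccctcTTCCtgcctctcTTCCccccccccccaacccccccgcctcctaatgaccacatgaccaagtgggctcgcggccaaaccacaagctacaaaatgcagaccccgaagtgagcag
ACGTG occurs in the Kcne3 window, 140 bases before the start, and in none of the windows of the other members with an entry, nor at the downstream Kcne3 start. It was held by 16.6% of the 32851 promoter windows of this length. GCGTG, the other form of this core, was not searched for, and no share of all windows was taken for it. It can be read in the Esm1 window and, as its complement CACGC, in that of Adm, but not in the Kcne3 and Apln windows shown. GGAA occurs 3 times in Esm1, 4 times in this Kcne3 window and 3 times in Apln, and 93.4% of all windows hold it. A match in letters is a description and not a bound site. Entries were found for 6 of the 9 genes (7 start sites), and Aplnr, Nid2 and Vwa1 had none.

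Cxcr4 and Ackr3 are the receptors of CXCL12. CXCR4 signals through G proteins and is also carried by most leukocytes, and ACKR3 takes the chemokine up and removes it. Cxcr4 had 9.46 in LSEC, 12.12 in HAK-1B, 10.44 in Hepa1-6 and 11.87 in KYN-2 TEC, or 6.33-fold, 1.98-fold and 5.35-fold above LSEC (probe at chr1:130485079-130485138, mm9). Ackr3 followed with 10.48, 13.17, 11.77 and 12.74, or 6.45-fold, 2.44-fold and 4.81-fold (probe at chr1:92112211-92112270, mm9). None of these 6 differences was called, although all were above LSEC. Neither gene was detected in cultured Hepa1-6 cells (4.13 and 4.78), where Ackr3 was called lower and LSEC was at least 22.9-fold higher.

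A second Cxcr4 probe, nearer to the start of the transcript (chr1:130486114-130486173, mm9), had 6.51 in LSEC, 10.09 in HAK-1B, 5.87 in Hepa1-6 and 9.57 in KYN-2 TEC. It was called higher in HAK-1B TEC at 11.9-fold and in KYN-2 TEC at 8.33-fold. In Hepa1-6 TEC it was 1.56-fold below LSEC where the brighter probe was 1.98-fold above. The direction for Cxcr4 in Hepa1-6 TEC therefore depends on the probe.

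Since leukocytes carry CXCR4 as well, their markers were read on the same arrays, where the brighter Cxcr4 probe had 12.12 in HAK-1B, 10.44 in Hepa1-6 and 11.87 in KYN-2 TEC. All 10 neutrophil markers were detected in HAK-1B TEC and Hepa1-6 TEC, 9 in KYN-2 TEC and 7 in LSEC. Their summed linear signal was 205200 in HAK-1B TEC, 69090 in Hepa1-6 TEC, 80090 in KYN-2 TEC and 93710 in LSEC. Csf3r had the largest signal of the list in LSEC (16.45), Hepa1-6 TEC (15.17) and KYN-2 TEC (16.15), and the sums lean on it. It was also detected in cultured Hepa1-6 cells (15.22). By single genes, 9 of the 10 were above LSEC in HAK-1B, 9 in Hepa1-6 and 6 in KYN-2 TEC. Of the 10 markers, 8 were called higher than LSEC in HAK-1B, 4 in Hepa1-6 and 0 in KYN-2 TEC. The granulocyte surface gene Ly6g was not detected in LSEC or KYN-2 TEC, and Cxcr2 and Ltf were not detected in LSEC. Ly6g had 6.12 in HAK-1B TEC and 7.10 in Hepa1-6 TEC, and more, 9.74, in cultured Hepa1-6 cells, where it was called higher too. All 10 macrophage markers were detected on every endothelial array, with a summed signal of 860600 in LSEC and between 442100 and 748500 in TECs, and all 5 B cell markers too (7149 in LSEC, 3043 to 10050 in TECs). Of 8 T and NK cell markers 6 were detected in LSEC, 7 in HAK-1B, 8 in Hepa1-6 and 7 in KYN-2 TEC, with summed signals of 4097 in LSEC, 3816 in HAK-1B, 34950 in Hepa1-6 and 6836 in KYN-2 TEC. Of these, 2 were called higher in Hepa1-6 TEC and 0 in the other TECs: Gzma, a granzyme of cytotoxic lymphocytes (14.85 against 9.35 in LSEC), and Ncr1, a receptor of NK cells (8.38, not detected in LSEC). The part of these cells in the signal of Cxcr4 was not tested.

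The ligand gene Cxcl12 had 9.10 in LSEC, 9.69 in HAK-1B, 7.65 in Hepa1-6 and 12.13 in KYN-2 TEC, where it was called higher at 8.21-fold, and was not detected in cultured cells (2.31). Hepa1-6 TEC, with the lowest Cxcl12 signal of the 4 endothelial arrays, also had the lowest Cxcr4 and Ackr3 of the TECs. Cxcl11, a ligand shared by ACKR3 and the receptor CXCR3, read between 16.87 and 17.86 on all 5 arrays, the cultured cells included. This is the brighter of its 2 probes, and whether so even a signal reports the Cxcl11 transcript was not tested. Cxcr3 ran from 7.45 in Hepa1-6 TEC to 9.89 in HAK-1B TEC with 8.35 in LSEC and was not called.

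The upstream windows of Cxcr4 (chr1:128592300-128592549, minus strand) and Ackr3 (chr1:90203730-90203979, plus strand) are shown in the same way for this receptor pair, with GGAA or TTCC in capitals. They hold it 1 time and 3 times, and ACGTG in neither, while GCGTG, which was not searched for, can be read in both.
Cxcr4: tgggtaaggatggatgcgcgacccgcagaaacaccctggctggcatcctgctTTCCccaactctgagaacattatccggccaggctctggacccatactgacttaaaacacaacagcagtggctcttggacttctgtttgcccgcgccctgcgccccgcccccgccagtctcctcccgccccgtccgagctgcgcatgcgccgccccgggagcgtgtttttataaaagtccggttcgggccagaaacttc
Ackr3: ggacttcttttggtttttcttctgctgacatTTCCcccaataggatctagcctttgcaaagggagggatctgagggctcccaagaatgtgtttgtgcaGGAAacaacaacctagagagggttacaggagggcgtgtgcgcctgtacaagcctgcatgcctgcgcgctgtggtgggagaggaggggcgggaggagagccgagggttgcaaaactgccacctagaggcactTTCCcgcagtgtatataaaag

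Adm encodes adrenomedullin, a peptide that widens vessels and tightens the endothelial barrier. It was the 1 member called lower in a TEC. Its signal was 11.83 in LSEC, 9.03 in HAK-1B TEC, 10.38 in Hepa1-6 TEC, 12.83 in KYN-2 TEC and 2.31, not detected, in cultured cells (probe at chr7:117773088-117773147, mm9). HAK-1B TEC was 6.97-fold below LSEC, Hepa1-6 TEC 2.73-fold below and KYN-2 TEC 2.0-fold above, and the last 2 were within the limits of the rule. The HAK-1B call lay just past its limit of 6.91-fold and was lost under other scalings.

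Its receptor is Calcrl with a RAMP protein, and RAMP2 is the form that endothelial adrenomedullin signaling depends on. Calcrl had 14.40 in LSEC and 11.10, 10.78 and 11.94 in the TECs, in the order HAK-1B, Hepa1-6, KYN-2, and was called lower in HAK-1B TEC at 9.83-fold and in Hepa1-6 TEC at 12.3-fold. Ramp2 had 16.25 in LSEC and 13.47, 13.27 and 14.13 in the TECs, 6.85-fold, 7.86-fold and 4.34-fold lower, with no call. Ramp3 was on the other side, at 10.07 in LSEC and 12.24, 13.21 and 12.11 in the TECs, with no call. Cultured Hepa1-6 cells also gave 12.81 for Ramp3. Ramp1 had 7.39 in LSEC, 10.00 in HAK-1B, 7.88 in Hepa1-6 and 8.31 in KYN-2 TEC. Of the related ligands, Calca, the gene of calcitonin and CGRP, was called higher in HAK-1B TEC (10.74 against 6.46 in LSEC), and Adm2 was called higher in KYN-2 TEC (5.74) with no detection in LSEC. Of the 7 genes of this axis, 1 was called higher and 2 lower in HAK-1B, 0 and 1 in Hepa1-6 and 1 and 0 in KYN-2 TEC. The pan-endothelial markers given above were lower in the same TECs, and their part in the receptor values was not tested.

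**Figure D3:**
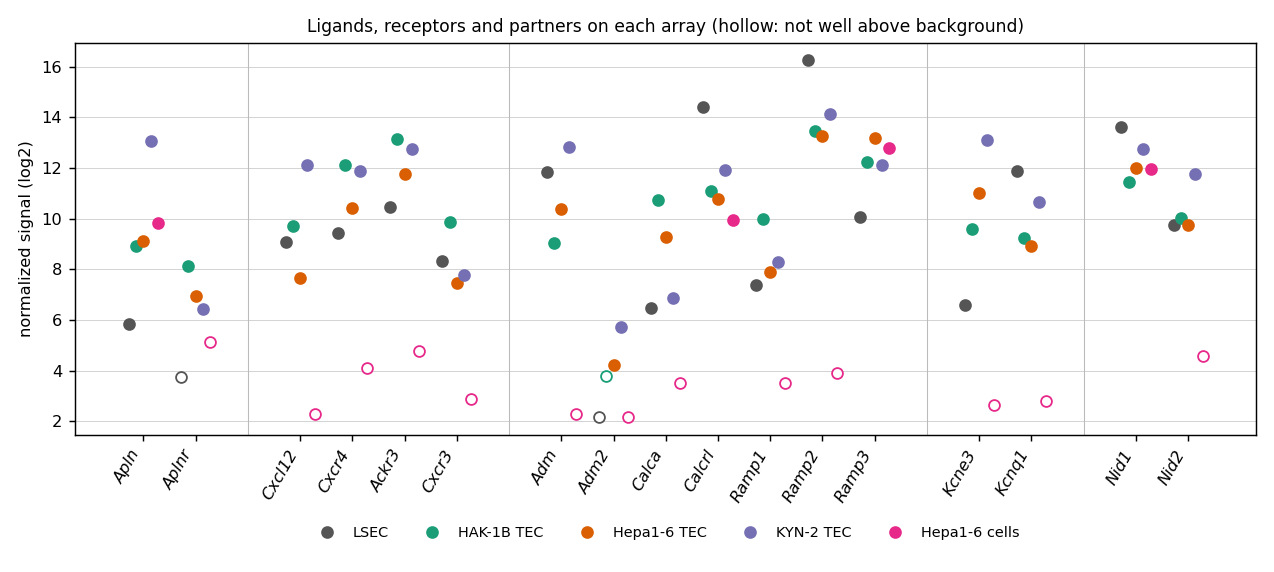
Normalized log2 signal (vertical axis) of ligands, receptors, channel subunits and nidogens (horizontal axis) on the 5 arrays, 1 symbol per array, hollow where not well above background. Signals are to be compared between arrays within a gene and not between genes, and Calcrl and Ramp2 are highest in LSEC (14.40 and 16.25) while Apln, Cxcl12, Adm and Kcne3 are highest in KYN-2 TEC.

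Nid2 and Vwa1 encode proteins of the basement membrane: nidogen 2 links laminin to collagen IV, and Vwa1 (WARP) binds perlecan and collagen VI. Nid2 had 9.76 in LSEC, 10.05 in HAK-1B, 9.74 in Hepa1-6 and 11.75 in KYN-2 TEC, with 4.59 and no detection in cultured cells (probe at chr14:20630490-20630549, mm9). HAK-1B and Hepa1-6 TECs lay within 1.22-fold of LSEC, and KYN-2 TEC was 3.97-fold above, which was not called. Its other probe was detected in Hepa1-6 and KYN-2 TEC alone (3.01 and 5.21). On the LSEC and HAK-1B TEC arrays that probe read 4.32 without detection, above its Hepa1-6 TEC signal. Nid1, the related nidogen, had 13.63 in LSEC and 11.45, 12.01 and 12.77 in the TECs, with no call.

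Vwa1 was not detected in LSEC (4.53) or in cultured cells (6.01) and had 9.47 in HAK-1B, 8.25 in Hepa1-6 and 11.13 in KYN-2 TEC (probe at chr4:155143700-155143759, mm9). It was at least 27.6-fold, 11.9-fold and 87.3-fold above the LSEC array, and each difference was called. The other 2 probes named Vwa1 behaved in another way. One (chr4:155147868-155147927) was detected on all 5 arrays within a narrow range, from 5.22 in Hepa1-6 TEC to 6.76 in KYN-2 TEC with 6.72 in LSEC, and the other (chr4:155150185-155150244) was detected on none. The array file lists both for a cDNA other than the RefSeq transcript, with coordinates that run on the opposite strand, and whether they read the same transcript is not settled here.

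Of the 17 genes of the list of nidogens, perlecan and their partners, 3 were called higher in HAK-1B, 1 in Hepa1-6 and 5 in KYN-2 TEC, and 0 lower in any. Apart from Vwa1 these included Lamb1, the laminin beta 1 chain (6.82 in LSEC and 11.76, 9.97 and 11.99 in the TECs), and Col18a1, the source of endostatin (8.48 in LSEC and 13.24, 11.26 and 12.62), both called in HAK-1B and KYN-2 TEC. Col6a1, a chain of the collagen VI that Vwa1 binds, was called in KYN-2 TEC (9.45 against 6.41), as was its partner chain Col6a2 (6.83, not detected in LSEC), which was named after its value was seen. Cultured Hepa1-6 cells also gave 12.11 for Lamb1, 12.16 for Col18a1 and 8.39 for Col6a1. All 8 stellate cell and fibroblast markers were detected in Hepa1-6 TEC, 7 in the other TECs and 6 in LSEC, with summed signals of 34350, 5399 (HAK-1B), 13520 (KYN-2) and 3647. In cultured Hepa1-6 cells 2 of the 8 were detected, with the largest sum, 110000. The sums of these cells and of Hepa1-6 TEC lean on Dcn, at 16.74 and 14.72, with 11.44 in LSEC, 10.65 in HAK-1B and 11.66 in KYN-2 TEC. Col1a1, a chain of collagen I, was not detected in LSEC (4.72) and was called higher in all 3 TECs, at 9.46 in HAK-1B, 10.87 in Hepa1-6 and 11.53 in KYN-2 TEC. Col1a2 and Col3a1 were called higher in Hepa1-6 and KYN-2 TEC. The part of such cells in the signal of the matrix genes was not tested.

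KYN-2 TEC was set against the other TECs after its values had been seen, since it was highest for 6 of the genes. Against HAK-1B TEC, 4 of 9 were called higher, Esm1 at 14.5-fold, Apln at 17.7-fold, Kcne3 at 11.2-fold and Adm at 13.9-fold, where 2.84% of 31596 probes were. Against Hepa1-6 TEC, Apln at 15.5-fold and Vwa1 at 7.36-fold were called, where 1.53% of 41183 probes were. By the brightest probes none of the 9 was called between HAK-1B and Hepa1-6 TEC, where 1.46% of 41542 probes were called higher and 4.19% lower. For the 3 receptors no pair of TECs differed by more than the rule asks on these probes, and the largest distance was 3.22-fold for Aplnr. The second Cxcr4 probe was 18.7-fold higher in HAK-1B TEC and 13.0-fold higher in KYN-2 TEC than in Hepa1-6 TEC, and both differences were called.

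The array of cultured Hepa1-6 cells shows which of the genes were detected in the cancer cells of that line. Of the 9 brightest probes, 2 were detected there (Esm1 and Apln). Against LSEC, 2 of 9 were called lower (Ackr3 and Adm) and 0 higher, where 4.04% of 31176 probes were called lower and 2.16% higher, and Aplnr and Vwa1 were flagged present on neither array. Hepa1-6 TEC against the cells of its own line gave 6 of 9 called higher, where 4.18% of 41241 probes were. Esm1 was 76.1-fold higher in the TECs. Kcne3, Cxcr4, Ackr3, Adm and Nid2 were at least 33.6-fold, 22.3-fold, 55.9-fold, 21.4-fold and 13.7-fold higher against the lowest signal detected in the cells. Apln stood alone in being lower in Hepa1-6 TEC than in the cells. The hepatocyte markers had a summed signal of 67630 in Hepa1-6 TEC, 35580 in the cells, 33680 in LSEC, and 1326 and 2038 in HAK-1B and KYN-2 TEC. The Hepa1-6 TEC sum leans on Alb (15.54), and that of the cells on Alb (13.94), Hnf4a (13.52) and Fgb (12.61). Of the 10 markers 4 were detected in the cells and 9 in Hepa1-6 TEC. Their median log2 ratio to LSEC was -2.92 in the cells and 0.36 in Hepa1-6 TEC.

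Hypoxia raises several of these genes in endothelial and other cells, among them Apln and Adm, and VEGF raises Esm1. All 12 genes of a list of hypoxia targets were detected on the 4 endothelial arrays, and their median log2 ratio to LSEC was highest in KYN-2 TEC (2.71), with 1.87 for Hepa1-6 TEC and 1.64 for HAK-1B TEC. Of the 12, 4 were called higher in HAK-1B, 2 in Hepa1-6 and 6 in KYN-2 TEC, and 0 lower. Egln3, an oxygen-sensing hydroxylase, had 6.05 in LSEC and 10.54, 10.59 and 12.01 in the TECs, in the order HAK-1B, Hepa1-6, KYN-2. Slc2a1, the glucose transporter GLUT1, had 9.86 and then 13.72, 13.38 and 14.56. For Vegfa the order differed, with 8.71 in LSEC, 14.54 in HAK-1B, 11.76 in Hepa1-6 and 13.56 in KYN-2 TEC, and Aldoc, a glycolytic aldolase, was about level in the TECs (11.28, 11.26 and 11.30 against 8.33 in LSEC). Adm, itself a hypoxia target, was below LSEC in HAK-1B and Hepa1-6 TEC. Of the 12 listed targets, 10 were above LSEC in each of these TECs and 2 below. The 2 were Ndrg1 (log2 ratios of -0.55 and -0.57) and P4ha1 (-0.17 and -0.35), both named after their values were seen. Whether hypoxia has a part in the values of the 9 genes was not tested.

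Other genes known from tip cells did not share one direction. Of 16, 2 were called higher and 3 lower in HAK-1B, 1 and 1 in Hepa1-6 and 3 and 1 in KYN-2 TEC, and their median log2 ratios were -0.13, -0.46 and 1.29. Igfbp3, a carrier of insulin-like growth factors, was called higher in all 3 TECs (8.99 in LSEC and 14.82, 14.25 and 16.24), and also in cultured Hepa1-6 cells (15.37). Plaur, the urokinase receptor, had 10.75 in LSEC and 14.89, 13.93 and 14.18 in the TECs, with 13.22 in cultured Hepa1-6 cells. Cd34 was called higher in KYN-2 TEC (13.48 against 10.60) and Flt4, the VEGF receptor 3, lower in HAK-1B TEC (7.08 against 10.30), and both were named after their values were seen. Kdr, the VEGF receptor 2 that tip cells use, was called lower in all 3 TECs, with 16.24 in LSEC and 12.55, 12.77 and 13.00, and Robo4 was called lower in HAK-1B TEC, with 16.66 in LSEC and 13.61, 13.56 and 15.02.

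Of 8 other tumor endothelial markers, 2 were called higher and 1 lower in HAK-1B, 2 and 0 in Hepa1-6 and 0 and 0 in KYN-2 TEC. Plxdc2 (TEM7R) was among the higher ones, with 9.87 in LSEC, 13.68 in HAK-1B, 14.14 in Hepa1-6 and 11.51 in KYN-2 TEC. Cd276 (B7-H3), called higher in HAK-1B and Hepa1-6 TEC and named after its values were seen, was not detected in LSEC (4.63), had 8.67, 8.86 and 7.35 in the TECs, and had 10.08 in cultured Hepa1-6 cells. Adgra2 (TEM5) was called lower in HAK-1B TEC, with 9.92 in LSEC and 7.01, 8.67 and 7.29 in the TECs. Antxr1 (TEM8) and Cd248 (TEM1, endosialin) had mean log2 ratios of 0.77 and 0.70 over the 3 TECs and were not called.

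**Figure D4:**
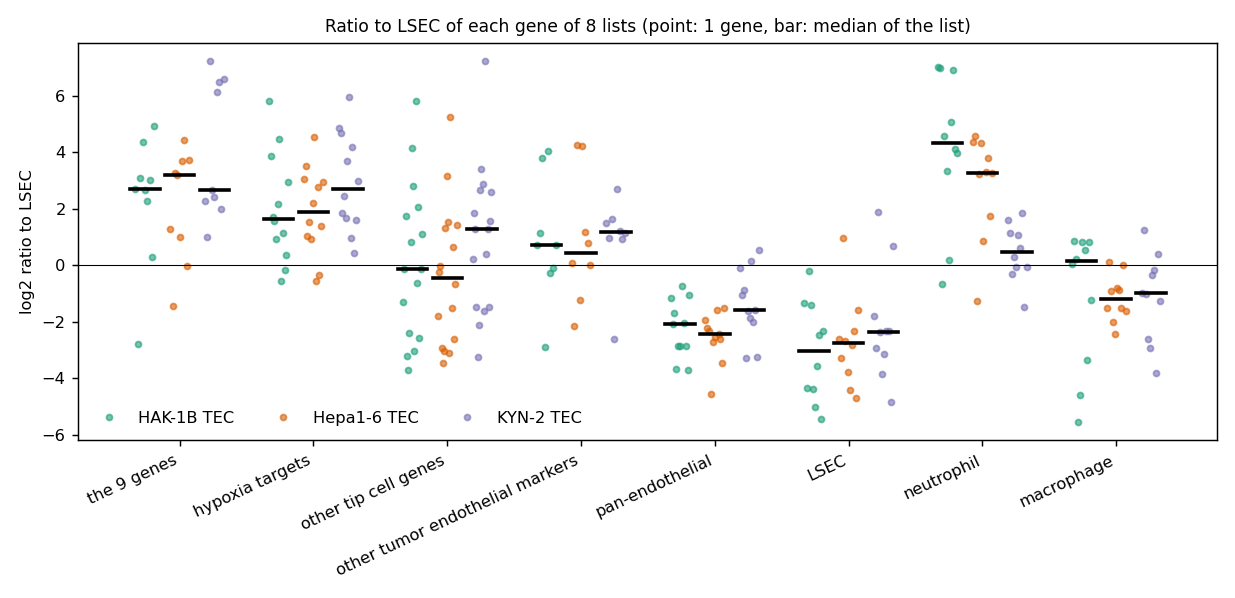
Log2 ratio to LSEC (vertical axis) of every gene of 8 lists (horizontal axis) in HAK-1B, Hepa1-6 and KYN-2 TEC, 1 point per gene and a black bar at the median of the list. Genes not well above background in LSEC are drawn at their measured ratio, and the medians of the 9 genes (2.69, 3.20 and 2.68, or at least 2.69, 2.27 and 2.42 with such genes at their bound) and of the hypoxia targets lie above 0 in all 3 TECs, those of the pan-endothelial and LSEC markers lie below it, and the neutrophil markers are high in HAK-1B and Hepa1-6 TEC.

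With the 3 TECs taken as 1 group against the single LSEC array in limma, which assumes that LSECs vary like TECs of 3 tumor lines, none of the 9 genes had a Benjamini-Hochberg adjusted p under 0.05 (0 of 9), and the same held for all 42112 probes (0%). Adjusted p-values of the 9 genes lay between 0.484 and 0.899. At an unadjusted p under 0.05 stood 4 of the 9 (Aplnr, Kcne3, Ackr3 and Vwa1), against 8.5% of all probes. The log2 differences were 5.09 ± 1.23 (SE from limma, adjusted p = 0.484) for Vwa1, 4.64 ± 1.45 (adjusted p = 0.53) for Kcne3, 3.42 ± 0.83 (adjusted p = 0.484) for Aplnr and 2.08 ± 0.74 (adjusted p = 0.573) for Ackr3, where the LSEC signals of Vwa1 and Aplnr were not well above background. Apln with 4.53 ± 1.90 and Esm1 with 4.03 ± 1.60 had larger differences than Ackr3 and larger SEs, since the TECs differed among themselves. Cxcr4 had 2.02 ± 0.85, Nid2 0.75 ± 0.97 and Adm -1.08 ± 1.58.

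Cxcr4 and Ackr3 were each among the 2 genes closest to the other across the 5 arrays. Likeness was the root mean square difference between log2 profiles after each was centred on its own mean, searched over 29511 probes detected on at least 3 arrays. It was taken for members detected in LSEC and in at least 2 TECs, which left out Aplnr and Vwa1. The closest genes to Cxcr4 were LOC105245058 (0.15) and Ackr3 (0.22), and to Ackr3 they were E130012A19Rik (0.22) and Cxcr4 (0.22). Closest to Kcne3 were Mmp12, the macrophage elastase (0.29), and Esm1 (0.78), and closest to Esm1 were Mmp12 through another probe (0.48) and Celsr3 (0.64). Adm was closest to Cd36, a fatty acid carrier of LSECs and other cells (0.26), and Loxl2 (0.56). Nid2 was closest to Flt1, the VEGF receptor 1 (0.22), and Trp53i11 (0.23), and Apln to Gprc5b (0.74) and Hist2h3b (0.79). The 5 points of each profile are single arrays, and for Esm1, Kcne3, Cxcr4, Ackr3, Adm and Nid2 the array of cultured cells was the lowest of them.

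Set against the median log2 ratio of the pan-endothelial markers of the same TEC, a reference chosen after the data had been seen, 26 of the 27 values of the 9 genes lay above it. The median of all probes kept, at 0.05 (HAK-1B), 0.05 (Hepa1-6) and -0.02 (KYN-2), lay above this reference too. The share of all probes above it was not taken, so the count does not set the 9 genes apart. Nid2, near LSEC by signal, was 2.38, 2.40 and 3.57 above the pan-endothelial median in the TECs of HAK-1B, Hepa1-6 and KYN-2 on the log2 scale. Adm in HAK-1B TEC was the exception, at -0.70, and in Hepa1-6 and KYN-2 TEC it was 0.98 and 2.58 above.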

How the data were processed

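Cy3-labelled cRNA of each condition was hybridized to a mouse array of 60-mer oligonucleotides (Agilent), 5 arrays in all. The authors deposited linear spot intensity after background subtraction by Feature Extraction (version 9.5.1.1 in the submitters' processing notes and 10.7.1.1 in the file headers), other deposited columns of 0 or 1 that flag each spot, and a table of normalized intensity whose columns share 1 median. Each of its columns correlated with its own array (log2 r = 0.9998) more than with any other, and the arrays behind its normalization are not known. Probe coordinates are those of the array design (mm9).

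Control spots were dropped and repeated spots averaged to 56605 probes. The log2 intensities were quantile normalized over the 5 arrays. Probes flagged present on at least 1 array compared were kept, without lincRNA probes. Each gene was read through its brightest probe over the 5 arrays, and other probes of the 9 genes are given as values. Where 1 side was not well above background, "at least" sets the brighter signal against the dim array's lowest detected signal, or the probe's own signal where that was higher. The number of arrays limits the precision. The rule of size needs no replicates and is no test. TECs and LSEC were compared in limma 3.58.1 (R 4.3.3) with 2 residual degrees of freedom and Benjamini-Hochberg adjustment over 42112 probes. Both were run on simulated data with less noise than the spread of the 9 genes over the 3 TECs. That run checks the code and not how either performs on these arrays. Other steps used Python 3.11.15, numpy 2.4.6 and pandas 2.3.3.

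The 9 genes and all gene lists were chosen with earlier results of these data known. All members with every probe are named, with the genes of the apelin, CXCL12, adrenomedullin and KCNE lists and Nid1, and in each other list up to 4 genes with the largest mean ratio among those detected on all 4 endothelial arrays. For likeness the 2 closest genes are named, and further genes that were called are named as such. Alternatives were quantile normalization by pair, scaling to the 75th percentile, the deposited table, normexp (offset 50), other filters, no Z-score, the mean over probes, and each TEC left out in turn. Of 6 mural cell markers, also read, 5 were detected in LSEC and 6 (HAK-1B), 6 (Hepa1-6) and 5 (KYN-2) in TECs.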

Additional observations from a re-analysis of the deposited data

Results flagged for a closer look

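Adm differed in direction between TECs: its log2 ratio to LSEC was 1.00 in KYN-2 TEC, but -2.80 in HAK-1B TEC and -1.45 in Hepa1-6 TEC. Nid2 had 1.99 in KYN-2 TEC, 0.29 in HAK-1B TEC and -0.022 in Hepa1-6 TEC, the last being close to 0. With 1 array per condition these differences between TECs were not tested. The signs held under the 5 other ways of scaling or averaging that were tried for each. Adm has 1 probe, so the mean over probes could not change its value.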

How the results depend on the processing

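No paired analysis was possible because no condition has a second array. Of 9 genes called by the rule of size in HAK-1B TEC against LSEC (5 as reported), normexp gave 8, no Z-score 8 and a ratio of 2 or 0.5 without Z-score 8, while 53.2% and 34.3% of all probes were called under the last 2. The Adm call was lost with scaling to the 75th percentile and with normalization by pair. In Hepa1-6 TEC (3 as reported) the count was 1 with scaling to the 75th percentile, 5 with no flag filter, 8 with no Z-score and 7 with a ratio of 2 or 0.5. In KYN-2 TEC (4 as reported) it was 7 with normexp, 9 with no Z-score and 8 with a ratio of 2 or 0.5. In cultured cells (2 as reported) it was 4 with scaling to the 75th percentile, 4 with no flag filter, 1 with probes present on both arrays, 7 with no Z-score and 7 with a ratio of 2 or 0.5. With probes present on both arrays only 2 of the 9 genes were tested, and the 1 call was Apln, higher. The reported calls, Ackr3 and Adm lower, were not among those tested. The cause of these changes was not tested. With the mean over the probes of a gene Vwa1 was called in none of the 3 TECs and Cxcr4 was called higher in HAK-1B TEC, and the mean log2 ratio of Vwa1 was 1.29 in place of 5.09.

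The median over the 9 genes of the mean log2 ratio to LSEC was 3.42, the value of Aplnr, which was not detected in LSEC. It was at least 2.49 with undetected genes at their bound (an alternative chosen after seeing the data), 3.82 with scaling to the 75th percentile, 2.07 with normexp, 2.08 with the mean over probes and 5.45 relative to the pan-endothelial median, also chosen after seeing the data. Leaving out 1 TEC gave 2.94 to 3.53. Of 72 planned values for single genes, 69 moved by less than the SD over the 3 TECs, 3 moved by more and 0 changed sign. Part of this was fixed in advance, since leaving out 1 TEC cannot move a mean of 3 by a whole SD. For a gene with 1 probe the mean over probes is the same value. The count of 69 is therefore no measure of stability. Scaling to the 75th percentile moved the median of all probes to -0.12 in HAK-1B TEC and 0.42 in Hepa1-6 TEC, and no ratio of the 9 genes changed sign. limma called 0 of the 9 genes under every alternative run.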
